A study of Homo sapiens with 8 samples.

Results

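The LSD1-bound regions of human chromosome 20 were described in MDA-MB-231 cells with and without RCOR2. The regions were chosen by the deposited summit positions: every summit on chromosome 20 was taken, and neighbouring summits at most 500 bp apart were joined into 1 region. This gave 1875 regions of 68148 on chromosomes 1 to 22 and X. The chromosome itself had been picked with its summits known to differ between the genotypes, so presence and strength by genotype are given here as a description, without a test on the members as a set.

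LSD1 (KDM1A) is a histone demethylase that removes mono- and dimethyl marks from lysine 4 of histone H3, a modification of promoters and enhancers. It acts with the CoREST proteins RCOR1, RCOR2 and RCOR3, which tether it to nucleosomes, and with histone deacetylases. Chromosome 20 is a small and gene-dense chromosome whose long arm is recurrently gained in breast cancer and carries the oncogenes ZNF217, NCOA3 and AURKA. Gene names were not assigned to the regions, since a gene annotation of the build hg19 was not used here.

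LSD1 was profiled by CUT&RUN, in which a protein A/G-MNase fusion cuts chromatin next to an antibody and the released fragments are sequenced. The groups were parental MDA-MB-231, a triple-negative breast cancer line, and RCOR2-KO1, a knockout line made from it, with 2 libraries each. RCOR2-KO1 is 1 knockout line, so the loss of RCOR2 and anything else that sets this line apart cannot be told apart. The libraries with normal rabbit IgG, 4 in all, served as the input of the peak calling and were not used here. The methods say that the assay was done more than once, but no source used here says whether the libraries of a genotype came from separate cultures, and p-values therefore measure only the spread between these libraries.

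Each list gives the highest base of every peak as a summit, with a −log10 p- or q-value. That value depends on the sequencing depth, which is unknown, so the strength of a summit is given as its percentile within its own list, with 100 for the strongest. The full lists held 47354 and 54467 summits in parental replicates 1 and 2 and 49586 and 50119 in KO1 replicates 1 and 2. All coordinates are hg19. A region is called shared when all 4 lists have a summit in it, parental-only when both parental lists and no KO1 list have one, and KO1-only in the reverse case.

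Fewer LSD1 summits lay on chromosome 20 in KO1 than in parental cells. The parental libraries had 1362 and 1524 and the KO1 libraries 1271 and 1298. The means were 1443 ± 115 and 1284.5 ± 19.1 (SD, n = 2 each), and both KO1 libraries were below both parental libraries. The order held relative to the length of the lists, as chromosome 20 took 2.88% and 2.80% of the parental summits and 2.56% and 2.59% of the KO1 summits. Most of this difference lay on the long arm. 20q held 944 and 1043 summits in the parental libraries against 842 and 874 in the KO1 libraries, whereas the ranges on 20p overlapped, at 418 and 481 against 429 and 424.

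The summits of chromosome 20 were by their median somewhat above the middle of each list, and high among the chromosomes. Their median percentile was 53.8 and 53.3 in the parental libraries and 53.7 in both KO1 libraries, the highest of all chromosomes in both parental lists, level with chromosome 19 in KO1 replicate 1 and second to it in KO1 replicate 2. The lowest chromosome medians were 46.2 and 45.4 in the parental lists and 45.05 and 44.01 in the KO1 lists, on chromosome 4 or X. Summits over the percentile of 90 made up 12.6% and 13.6% of the chromosome 20 summits in parental and 14.4% and 14.7% in KO1 cells. By the genotype means neither measure was lower in KO1, although parental replicate 1 had the highest of these medians. The lists do not hold the same regions, so these values do not compare strength region by region.

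Most regions were found more than once. Of the 1875 regions, 959 (51.1%) were shared by all 4 lists, 206 (11.0%) were in 3 lists, 291 (15.5%) in 2 lists and 419 (22.3%) in 1 list. Among the regions of 3 lists, 111 lacked 1 KO1 list and 95 lacked 1 parental list. Of the regions of 2 lists, 138 were parental-only, 46 were KO1-only and 107 had 1 summit of each genotype. Parental replicate 2, the longest list, alone held 183 of the single-list regions, against 85 in parental replicate 1 and 70 and 81 in the KO1 libraries. No library had more than 1 summit in any region, and the smallest distance between summits of the same list on this chromosome was 628 bp.

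The joining distance fixed which summits count as the same region. Of the distances above 0 bp between neighbouring summits, 2899 were up to 100 bp, 381 from there to 250 bp and 180 from there to 500 bp. Summits on the same base are not in these counts. A further 100 fell between 500 and 750 bp, and only 8 between 750 and 1000 bp. The largest joined distance was 500 bp and the smallest that kept summits apart was 501 bp. Of the 100 distances just above the limit, 66 were between a parental and a KO1 summit, 33 between libraries of the same genotype and 1 within a list. Regions just outside the limit are therefore marked below where a result rests on them.

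Parental-only regions took a larger share of chromosome 20 than of any other chromosome, with chromosomes 18 and 16 close behind. They made up 138 of the 1349 regions that both libraries of at least 1 genotype held, or 10.2% (95% Wilson interval 8.72 to 12.0, counting error only), where the background over all chromosomes was 5.84%. The other chromosomes gave 2750 of 48125 (5.71%), with a median of 5.65% and a range from 3.11% to 9.66%, so that chromosome 20 ranked first. KO1-only regions were 46, or 3.41% (2.57 to 4.52), where the background was 4.99%, and the other chromosomes ranged from 2.09% to 7.28%. These shares are the values the chromosome was chosen on, and nothing further is read from them. Leaving out a library relaxes what counts as parental-only and gave 321 and 230 regions without parental replicate 1 or 2, and 194 and 199 without KO1 replicate 1 or 2.

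**Figure D1:**
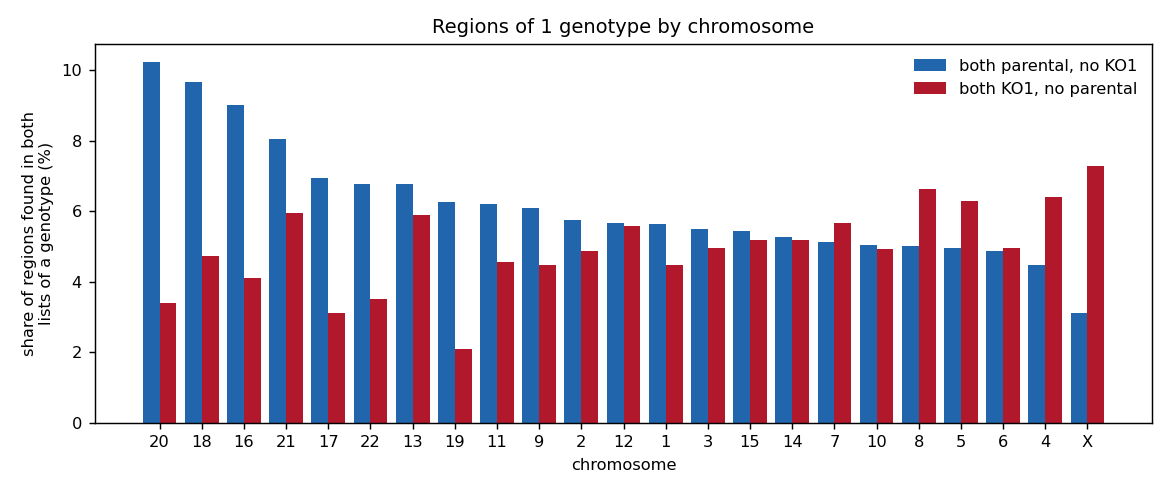
Parental-only (blue) and KO1-only (red) regions as a percentage of the regions found in both lists of a genotype (y axis), by chromosome (x axis, ordered by the parental-only share); each bar is 1 count ratio over the 4 lists, without replicates. Chromosome 20 is first with 10.2% parental-only regions, ahead of chromosome 18 with 9.66% and chromosome 16 with 9.01%.

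The excess of parental-only regions was among weak and middling regions, not among the strongest. Of the regions in both parental lists with a mean parental percentile up to 25, 73 of 193 (37.8%) had no KO1 summit on chromosome 20, against 23.9% on the other chromosomes. The shares were 45 of 294 (15.3%) against 7.24% from the percentile of 25 to 50, and 16 of 345 (4.64%) against 1.89% from 50 to 75. Above 75 they were 4 of 376 (1.06%) against 1.06%. The median percentile of the 138 parental-only regions was 19.8 in parental replicate 1 and 28.6 in parental replicate 2, and 48 of them were under 25 in both libraries. In the reverse direction, 23 of 152 (15.1%, interval 10.3 to 21.7) were KO1-only up to the percentile of 25, against 20.3% elsewhere. The shares were 4.12% against 6.32% from 25 to 50, and 2.52% against 1.43% from 50 to 75. The intervals cover counting error only and treat neighbouring regions as independent, so they are no test of chromosome 20 against the others. Weak summits lie near the peak caller's threshold, and its part in these shares was not tested.

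**Figure D2:**
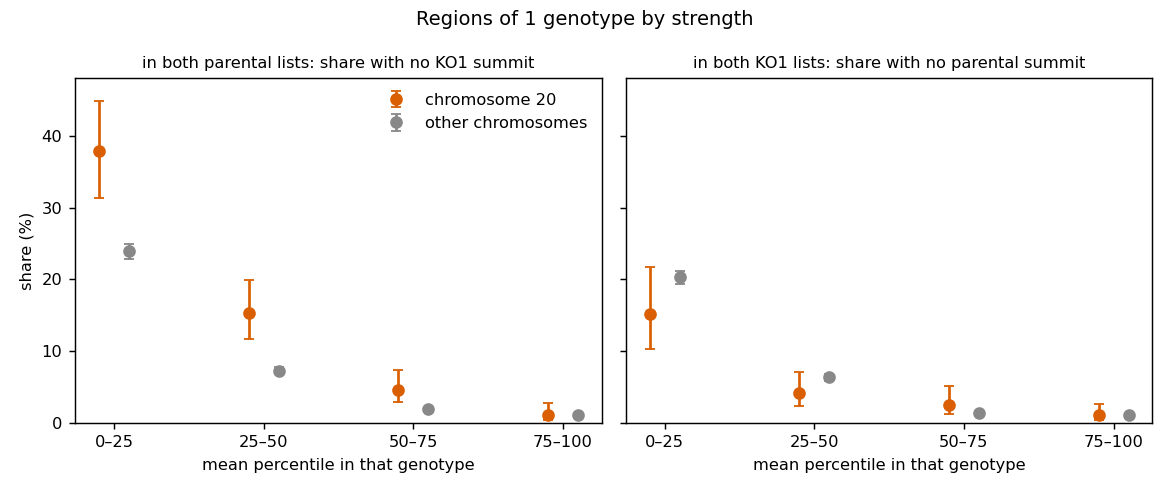
Share of regions with no summit of the other genotype (y axis, %) by the mean percentile in their own genotype (x axis), for chromosome 20 (orange) and all other chromosomes (grey), with 95% Wilson intervals that cover counting error only. The orange points exceed the grey ones for parental regions up to the percentile of 75 and meet them at 1.06% above it. For KO1 regions the orange points are lower up to 50 and higher from 50 to 75. The intervals treat regions as independent and are no test of chromosome 20 against the others.

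A stretch of 3.47 Mb without a summit in any list, chr20:26144717-29611656, divided the arms. It spans the centromere. From the first summit at 189701 to the stretch, 20p held 586 regions over 25.96 Mb, or 22.6 per Mb. From the stretch to the last summit at 62918783, 20q held 1289 regions over 33.3 Mb, or 38.7 per Mb. Of the regions in both lists of a genotype, 31 of 428 (7.24%, interval 5.15 to 10.1) were parental-only on 20p and 107 of 921 (11.6%, interval 9.71 to 13.8) on 20q. KO1-only regions took 3.50% of 20p and 3.37% of 20q. Once each list was cut to its upper 50%, the parental-only share of 20q was only 0.293 percentage points above that of 20p.

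**Figure D3:**
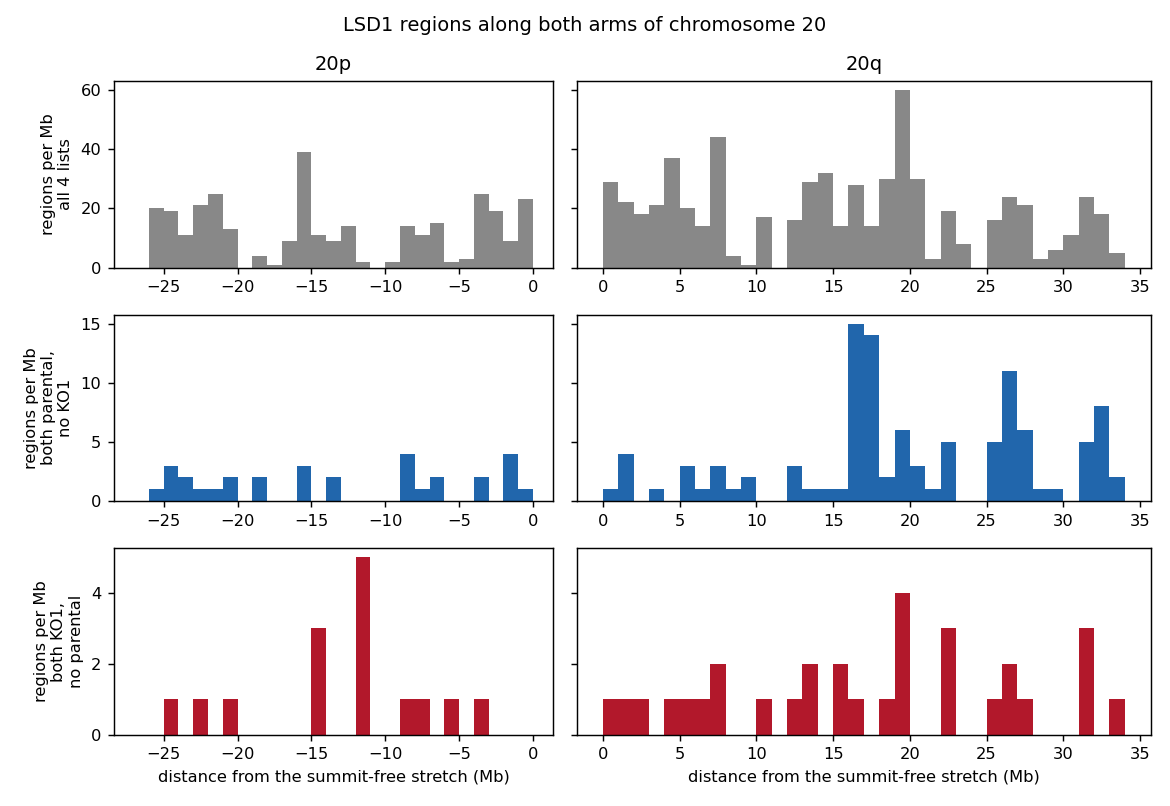
Number of shared (top), parental-only (middle) and KO1-only (bottom) regions in bins of 1 Mb (y axis) against the distance from the summit-free stretch (x axis, Mb) on 20p (left, negative distances) and 20q (right). Shared regions spread over both arms, whereas parental-only regions pile up at a few places between the middle of 20q and its end.

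Parental-only regions crowded into a few places on 20q. In bins of 5 Mb counted from the start of the chromosome, they were 38 of 232 (16.4%) between 45 and 50 Mb, 13.0% between 50 and 55 Mb, 22 of 110 (20%) between 55 and 60 Mb and 15 of 86 (17.4%) in the last bin. These 4 neighbouring bins had the ranks 9, 14, 3 and 7 of 467 bins with at least 30 shared regions over all chromosomes. The 20q bins before them held far fewer, with 4.14% from 30 to 35 Mb, 7.50% from 35 to 40 Mb and 4.76% from 40 to 45 Mb. The bins up to 25 Mb, on 20p, lay between 4.72% and 12.1%, and the bin from 25 to 30 Mb, nearly all of it on 20p, had 3.03%. All these shares are of the regions in both lists of a genotype. There were 68 such regions between 46 and 48 Mb, within the 45 to 50 Mb bin. Of them, 30 (44.1%) were parental-only and 1 was KO1-only, where the background over all chromosomes was 5.84% and 4.99%.

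The centre of this crowd was a stretch of 20q where no KO1 list had a single summit. At chr20:46317634-46867292, 36 consecutive regions over 549.7 kb held 29 summits of parental replicate 1, 28 of parental replicate 2 and 0 of either KO1 library. Parental-only regions made up 21 of the 36, and 8 and 7 were found in parental replicate 1 or 2 alone. Among these single-list regions, chr20:46538623 and chr20:46539329 were neighbours from different replicates just past the joining distance. So were chr20:46680794 and chr20:46681372, and the count of 36 rests on that distance. Counted in consecutive regions, the stretch was the longest run without a KO1 summit on chromosomes 1 to 22 and X. The next had 24 regions, on chromosome 16. Between the KO1 summits on either side lay 597.2 kb. The longest interval without a parental summit inside the run was 65.6 kb. This run was picked for its length after the values were seen.

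The parental summits in this stretch covered nearly the whole range of strength. Their percentiles ran from 2.45 to 89.7 in parental replicate 1 (median 30.6) and from 2.79 to 88.5 in parental replicate 2 (median 34.7). The strongest was chr20:46600940-46601028, with percentiles of 89.7 and 88.5 and −log10 values of 57.3 and 63.7. It was also the strongest parental-only region of the chromosome, and its nearest KO1 summit lay 285 kb away. In 4 of the 36 regions both parental libraries were over the percentile of 50; beside the strongest these were chr20:46424213-46424229 (68.8 and 61.7), chr20:46507350-46507470 (56.4 and 67.8) and chr20:46578910-46578951 (62.3 and 57.7).

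KO1 summits stood at both borders of the stretch. At chr20:46315469-46315535, just before it, the percentiles were 78.8 and 83.1 in parental and 54.2 and 60.2 in KO1 cells, a difference of -23.7 points. At chr20:46912665-46912715, the next region after it, they were 83.7 and 89.0 against 70.3 and 56.7, a difference of -22.9 points. Both border regions were thus lower in both KO1 libraries. The following region of all 4 lists, chr20:46924396-46924428 was strong in every library, with 94.1, 95.4, 91.4 and 97.0. Of the 22 shared regions in the 500 kb before the stretch, 7 were lower in KO1 by their mean and 15 higher. All 5 in the 500 kb after it were lower, from -22.9 to -0.48 points. Over both sides, 27 shared regions, the median difference was 1.47 points, with a range from -23.7 to 16.1.

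A second run without a KO1 summit followed on the same side of 20q. It had 8 consecutive regions over 284.5 kb, chr20:46968021-47252473, with 5 parental-only regions, and ranked ninth over all chromosomes. Its strongest region, chr20:47002665-47002704, had percentiles of 75.04 and 80.43 and lay 74.7 kb from a KO1 summit. The 15 shared regions within 500 kb of this run had a median difference of -8.02 points. Runs of 5 or more regions without a KO1 summit numbered 43 over all chromosomes, of which 7 were on chromosome 20. Runs of 5 or more without a parental summit numbered 26, of which 2 were on chromosome 20.

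**Figure D4:**
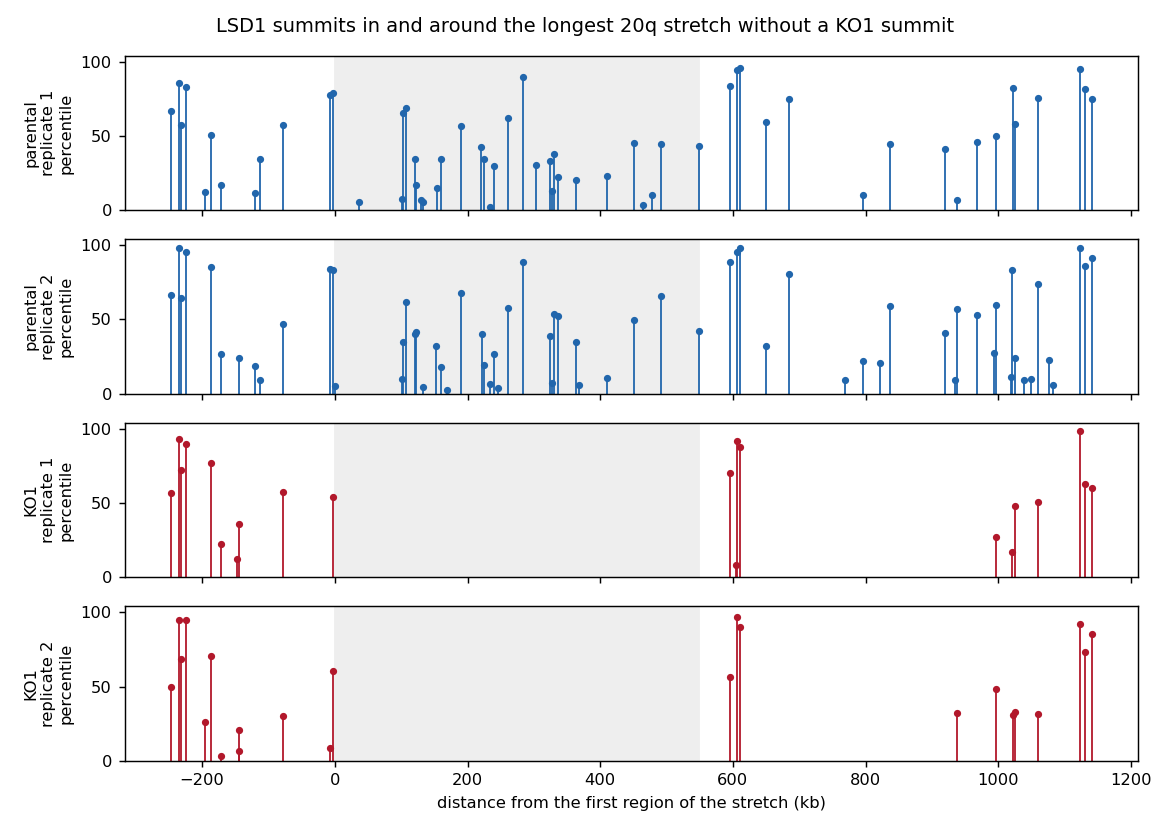
Percentile of every LSD1 summit within its own list (y axis) in each of the 4 libraries (panels) against the distance from the first region of the longest run without a KO1 summit (x axis, kb); the grey band marks the run of 549.7 kb. Both parental panels are filled inside the band, with 29 and 28 summits, and both KO1 panels are empty.

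The shares were also computed without the runs, which removes parental-only regions by construction and therefore lowers the share on any chromosome that has them. Without the longest run, 117 of the 1328 regions in both lists of a genotype (8.81%) were parental-only, and chromosome 20 then ranked behind chromosomes 18 and 16. With every run of 5 or more regions without a KO1 summit left out on all chromosomes, the share was 7.98% and chromosome 20 ranked second, at 2.50 percentage points above the other chromosomes instead of 4.52. The excess of 20q over 20p was 4.37 points with all regions, 2.31 without the longest run and 1.73 without all such runs. These settings were chosen after seeing the data. Copy number and the coverage of the IgG libraries were not analysed here.

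On 20p a run without a KO1 summit was followed by 3 shared regions that were lower in KO1. At chr20:24081285-24593853, 5 consecutive regions over 512.6 kb had no KO1 summit, of which 2 were parental-only. One of these, chr20:24317868-24317878, had parental percentiles of 67.6 and 72.3 and lay 314 kb from the nearest KO1 summit. Immediately after the run, chr20:24631918-24632125 had percentiles of 57.6 and 80.6 in parental and 4.473 and 6.997 in KO1 cells. The next shared regions, chr20:24653632-24653697 with a difference of -36.3 points and chr20:24754471-24754548 with -44.0 points, were also lower in both KO1 libraries. The other 5 shared regions in the 500 kb after the run were higher in KO1 by their mean, by up to 24.9 points. Of the 10 in the 500 kb before it, 6 were lower and 4 higher, from -46.5 to 7.05 points, and the median over both sides was -0.84.

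A run without a parental summit was seen elsewhere on 20p. At chr20:14387398-14860260, 6 consecutive regions over 472.9 kb had no parental summit, and 4 of them were KO1-only. They were weak: chr20:14860244-14860260 had KO1 percentiles of 37.1 and 11.0, and chr20:14502294-14502353 had 2.48 and 1.28. Of the 4 shared regions in the 500 kb before the run, 3 were higher in KO1 by their mean and 1 was lower, and no shared region lay in the 500 kb after it. The nearest were the pair with the largest differences, with 18.7 and 49.9 in parental against 78.6 and 84.1 in KO1 cells at chr20:14269617-14269763, and 25.4 and 13.7 against 38.8 and 52.7 at chr20:14318293-14318423. KO1-only chr20:14292077-14292209 lay between them. The median difference of the 4 was 23.05 points, with a range from -4.56 to 47.1.

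Some regions of a single genotype lay near a summit of the other, and most parental-only regions did not. Of the 138 parental-only regions, 12 had a KO1 summit within 1 kb and 15 within 2 kb, whereas 74 had none within 10 kb and 29 none within 100 kb. The median distance was 12.0 kb and the largest 397 kb. The 46 KO1-only regions lay closer, with 12 within 1 kb, 20 beyond 10 kb and a median of 4.92 kb, although the largest distance was 542 kb. In 7 cases a parental-only and a KO1-only region were within 1 kb of each other.

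Several of the strongest regions of a single genotype were such neighbours. Parental-only chr20:56293643-56293647 had percentiles of 85.6 and 83.8, and KO1-only chr20:56293061-56293067, 576 bp away, had 90.9 and 94.9. Likewise parental-only chr20:56386045-56386063 (78.0 and 86.4) stood 516 bp from KO1-only chr20:56385508-56385529 (91.2 and 81.7). At chr20:17660905-17660907 (70.6 and 72.5) the KO1-only partner was 2113 bp away, at chr20:17663020 (82.3 and 73.1). At chr20:31071757-31071815 (73.4 and 74.8) the nearest KO1 summit, 660 bp away, belonged to KO1-only chr20:31072475-31072484 (71.5 and 62.7). At these places both genotypes had a strong summit, at a base that was close between replicates and differed between genotypes. The first, second and last pair were just past the joining distance.

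Strong regions of a single genotype without such a partner were few. The strongest KO1-only region, chr20:36801933-36801936, had percentiles of 94.6 and 98.1 and lay 5008 bp from the nearest parental summit, at a shared region with 99.6 and 99.7 in parental and 99.1 and 99.0 in KO1 cells. KO1-only chr20:12133796-12133803, with 64.6 and 84.4, lay 251 kb from a parental summit. Among the 10 strongest parental-only regions, those more than 10 kb from a KO1 summit were the 3 of the crowd on 20q, with the percentiles given above, and chr20:24317868-24317878. Parental-only regions at a middle distance were chr20:36615547-36615555 (74.1 and 74.3), 3374 bp from a KO1 summit, and chr20:49317642-49318000 (58.0 and 70.1), 6177 bp away. When regions with a summit of the other genotype within 2 kb were not counted, 123 parental-only and 32 KO1-only regions were left.

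Where LSD1 was found in all 4 lists, the median strength on chromosome 20 differed little between the genotypes, and its direction depended on the parental library. The 959 shared regions had median percentiles of 65.1 and 69.9 in parental and 64.4 and 65.7 in KO1 cells, against 58.9, 64.5, 61.0 and 61.1 on the other chromosomes. The median difference between the genotype means, KO1 minus parental, was -0.64 points. Parental replicate 2 exceeded replicate 1 by a median of 3.84 points and KO1 replicate 2 exceeded replicate 1 by 0.373, and the pairs of KO1 and parental libraries of the same number gave 0.0840 and -2.55. The median was 0.299 without parental replicate 2 and -3.30 without parental replicate 1. On 20p it was -0.27 and on 20q -0.88, and neither direction held without parental replicate 2 (0.763 and 0.138).

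Between single libraries, a shared region differed somewhat more across than within genotypes. The median absolute difference was 8.81 points between the parental libraries and 7.55 between the KO1 libraries, and it ran from 9.31 to 10.4 points over the 4 pairings of a KO1 with a parental library. In 242 shared regions (25.2%) both KO1 libraries were below both parental libraries, where the background over all chromosomes was 22.4%. In 168 regions (17.5%) both were above, where the background was 19.6%. The arms were alike, with 77 below and 55 above of 321 on 20p and 165 below and 113 above of 638 on 20q.

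At the end of 20q the shared regions were lower in KO1 by the median of the 5 Mb bins. In the last bin, from 60 Mb to the end, the median percentiles of its 52 shared regions were 60.2 and 62.3 in parental and 52.7 and 53.0 in KO1 cells. The median difference was -8.82 points, the sixth lowest of 467 bins, and all 4 pairings of a KO1 with a parental library gave a negative median, from -1.92 to -10.5. The bin before it gave -5.08 points, with pairings from -0.44 to -6.74. This bin was not uniform, as the 5 shared regions from 58 to 59 Mb had a median of 4.08 points. The 7 from 59 to 60 Mb had -0.08. In both bins together, from 55 Mb on, 38 of 121 shared regions (31.4%) were below both parental libraries and 10 (8.26%) above. The background over all chromosomes was 22.4% below and 19.6% above. Of the 196 regions from 55 Mb on in both lists of a genotype, 37 (18.9%) were parental-only, where the background was 5.84%. The median difference of the segment was -5.79 points with pairings from -1.29 to -7.72, where parental replicate 2 exceeded replicate 1 by 5.52 points. The segment's limits were drawn after its values were seen.

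The other bins of 5 Mb showed no common direction, and bins of 1 Mb within them went both ways. Between 50 and 55 Mb the median difference was 2.72 points, and all 4 pairings were positive, from 0.472 to 3.82. Even so, 13.0% of that bin's regions in both lists of a genotype were parental-only. Its 7 shared regions from 54 to 55 Mb had a median of -13.0 points. Those from 50 to 51 Mb and from 52 to 53 Mb had 0.57 and 3.38. The bin with the long run, from 45 to 50 Mb, had a median of -0.50 points over its 152 shared regions, with pairings from -4.76 to 1.43. Its 47 shared regions from 48 to 49 Mb had a median of -8.96 points, with pairings from -5.78 to -9.25. Its 24 from 45 to 46 Mb had 6.21, with pairings from 0.098 to 5.86. Of the 13 bins of 5 Mb, 2 had only negative pairings, 1 had only positive ones and 10 were mixed. Within the 45 to 50 Mb bin, the 32 shared regions between 46 and 48 Mb, around the runs, had a median of -3.03 points. Of these regions, 10 (31.2%) were below both parental libraries and 2 (6.25%) above, where the background was 22.4% and 19.6%. The pairings, however, ran from -8.43 to 3.84.

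**Figure D5:**
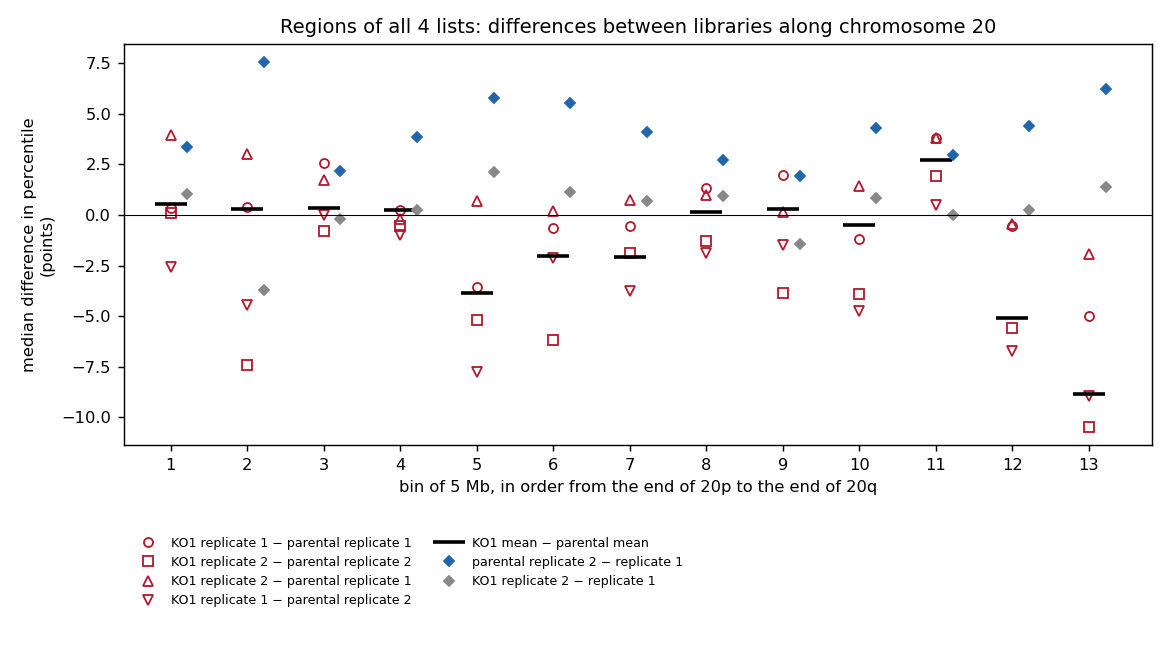
Median difference in percentile over the shared regions of each 5 Mb bin (y axis, points), in order along the chromosome (x axis); red symbols are the 4 pairings of a KO1 with a parental library, black bars the genotype means, and blue and grey diamonds the replicates of parental and KO1 cells. Bins 12 and 13 at the end of 20q are negative in all pairings (medians -5.08 and -8.82), and the parental replicates differ from each other by 1.93 to 7.55 points in every bin.

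The strongest shared regions were at the top of all 4 lists. On 20q, chr20:49982863-49982919 had percentiles of 99.89, 99.97, 99.97 and 100 (parental replicates 1 and 2, KO1 replicates 1 and 2) and held the strongest summit of the whole list in KO1 replicate 2, with a −log10 value of 237. It was followed by chr20:55363472-55363550 (99.92, 99.99, 99.97 and 99.85) and chr20:59761058-59761516 (99.90, 99.84, 99.95 and 99.63). Both lie in the distal part of 20q, where the medians of the 5 Mb bins were lower in KO1. They were picked by their mean percentile over all 4 libraries, so a region much lower in KO1 could not be among them. On 20p the strongest were chr20:17824227-17824334 (99.65, 99.97, 99.88 and 99.44) and chr20:10742608-10742634 (99.91, 99.59, 99.16 and 99.97). The former belongs to the cluster with the most regions on the chromosome, 8 over 16.9 kb with neighbours at most 5 kb apart, chr20:17813915-17830831, of which 3 were shared and none was parental-only or KO1-only.

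Single shared regions differed by far more than the medians. At chr20:56076636-56076728 the percentiles were 84.3 and 79.8 in parental and 12.9 and 21.3 in KO1 cells, a difference of -64.998 ± 12.4 points (SE; limma, adjusted p = 0.153). It lies in the distal part of 20q. At chr20:24631918-24632125, named above beside the 20p run, the difference was -63.4 ± 12.7 (limma, adjusted p = 0.166). At chr20:10057307-10057539 the percentiles were 97.3 and 91.8 against 52.6 and 32.6, a difference of -51.9 ± 11.2 (limma, adjusted p = 0.191). Both parental values there were over 90. The next were chr20:23673929-23674101 with -46.5 and chr20:48385100-48385312 with -44.8 points.

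In the other direction the largest differences were somewhat smaller. At chr20:45457331-45457401 the percentiles were 4.53 and 28.1 in parental and 80.5 and 65.3 in KO1 cells, a difference of 56.6 ± 13.1 points (SE; limma, adjusted p = 0.191). At chr20:43664949-43665219 they were 4.77 and 13.5 against 48.7 and 70.2, a difference of 50.3 ± 12.7 (limma, adjusted p = 0.193). The parental libraries were both weak at this place. The remaining ones were chr20:14269617-14269763 beside the run without a parental summit, with 47.1 points, chr20:37599082-37599204 with 45.7 and chr20:55211864-55211949 with 41.8.

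No shared region passed the test. In limma's fit to the percentiles of all 35861 shared regions, 0 of the 959 on chromosome 20 had an adjusted p under 0.05 in either direction, where the background was 0% lower and 0% higher. At an unadjusted p under 0.05 there were 82 lower (8.55%) and 49 higher regions (5.11%), where the background was 6.08% and 5.55%, and the lowest adjusted p was 0.153. The scale decided this count: with normal scores of the percentile 9 regions passed (7 lower, 2 higher; background 0.468% and 0.396%, against 0.730% and 0.209% here), and with the log2 of the −log10 value, quantile normalized, 15 passed (10 lower, 5 higher; background 0.608% and 0.647%, against 1.04% and 0.521% here). Leaving out KO1 replicate 1 or 2 gave 4 and 5, all lower (0.396% and 0.499%, background 0.135% and 0.11%), and leaving out a parental library gave 0. The calls of single regions therefore depend on the scale and on the libraries used.

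Chromosomes 18 and 16 were the nearest to chromosome 20 in their share of parental-only regions, with 9.66% and 9.01%. Their shared regions were lower in KO1, with median differences of -2.72 and -4.79 points, whereas that of chromosome 20 was -0.64 and close to the median chromosome at -0.53. The pairs of replicates 1 and of replicates 2 gave -0.47 and -5.29 on chromosome 18 and -1.89 and -6.37 on chromosome 16. KO1-only regions took 4.73% and 4.11% there and 3.41% on chromosome 20. The 3 chromosomes were picked by the same contrast, so these values stand side by side without a test.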

How the data were processed

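LSD1 CUT&RUN summits of 2 parental and 2 RCOR2-KO1 libraries of MDA-MB-231 were used. Per the submitters' processing notes, FastQC 0.11.2, Bowtie2 2.3.3.1, Picard and MACS2 2.1.0 were used with hg19; the notes give no role or order. The authors called peaks in each library by itself against IgG and deposited 1 summit of 1 bp per peak with a −log10 p- or q-value (which of them is not given in the sources used here). Depth is unknown. Wilson intervals cover counting error only.

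Summits were ranked within each list, ties sharing their percentile, and joined at distances up to 500 bp (scipy 1.17.1, numpy 2.4.6 and pandas 2.3.3 under Python 3.11.15, with matplotlib 3.10.9 for figures). The percentile of a region is that of its summit in the library. Genotypes were compared with limma 3.58.1 (R 4.3.3; lmFit, eBayes with trend, Benjamini-Hochberg over all 35861 regions of 4 lists), after tests on simulated data. Means carry the SD of 2 libraries.

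The chromosome, the regions and the lists were chosen with earlier results of these data known. Regions named are the 5 strongest shared regions of each arm, of which the first 3 of 20q and the first 2 of 20p are printed, the 10 strongest parental-only, the 5 strongest KO1-only, the 5 largest differences without overlap in each direction, the cluster with the most regions, and regions in or beside the runs, picked after their values were seen. Gene names, gene lists and sequences need an annotation or genome of hg19 and are not reported here. Tried as alternatives were lists cut to the shortest, the upper 50% of each list, distances of 250 bp and 1000 bp, other percentile scales, limma on other scales, without trend or with the replicate number as a block, each library left out, the surroundings of the summit-free stretch left out, and no summit of the other genotype within 2 kb.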

Additional observations from a re-analysis of the deposited data

How the results depend on the processing

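Of the values recomputed under the alternatives, 87 stayed within the spread or within 1.5 times of the count, 28 moved and 7 changed direction. The upper 50% of each list gave 980 regions, 73 parental-only and 27 KO1-only regions, 112 shared regions with both KO1 libraries below and 96 with both above, an excess of 20q over 20p of 0.293 percentage points, and median differences of 0.187 on the chromosome and 0.390 on 20q; fewer summits enter by construction. The median on 20p was 0.0496 with lists cut to the shortest and 0.318 with percentiles over shared regions alone. With each library left out in turn, parental-only regions numbered 194 to 321 and KO1-only regions 77 to 133, since 1 list then stands for a genotype, and shared regions below numbered 336 to 485 and above 275 to 382. Medians ran from -3.30 to 0.299 on the chromosome, -2.88 to 0.763 on 20p and -3.52 to 0.138 on 20q, each above 0 without parental replicate 2 alone. Regions past limma's adjusted p of 0.05 numbered 0 to 5 with a library left out (the lone library is assumed to vary like the other genotype), 9 with normal scores, 15 with log2 values and 0 in the reported fit and without trend. Without every run of 5 or more regions with no KO1 summit, chosen after seeing the data, the excess over the other chromosomes was 2.50 points. Where no construction is named, the cause was not tested.

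The replicate numbers did not pair the libraries: deviations of same-numbered libraries correlated with r = 0.00722 over 35861 regions. With the replicate block, 8 regions passed. The median differences of the same-numbered pairs, averaged over the pairs, were -1.24 on the chromosome, -1.07 on 20p and -1.30 on 20q. Unknown depth limits all weak summits.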
